A study of Mus musculus with 10 samples.

Results

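Prostaglandins and leukotrienes are short-lived lipid signals made from arachidonic acid. Cyclooxygenases and then prostaglandin E synthase make prostaglandin E2, which 15-hydroxyprostaglandin dehydrogenase inactivates. 5-lipoxygenase with its activating protein, followed by leukotriene A4 hydrolase, makes leukotriene B4, a neutrophil attractant. In skin wounds prostaglandin E2 comes from keratinocytes, fibroblasts and macrophages, whereas leukotrienes come mainly from white blood cells. The 10 genes listed for this pathway were Ptgs1, Ptgs2, Ptges, Hpgd, Ptger2, Ptger4, Alox5, Alox5ap, Alox15 and Lta4h. They were found by the gene symbol of the platform annotation, taking for each gene its brightest feature that carries 1 gene. This gave 9 of the 10 among 30627 genes. No feature was named Ptgs1, the constitutive cyclooxygenase gene, so it is not analysed here. Alox15 lay under the level filter described below, and the other 8 were tested among 17564 genes.

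The arrays came from wound-edge skin of male mice of the genotype db/db [BKS(D)-Leprdb/JOrlRj)], with C57BL/6 as strain background. These mice carry a mutant leptin receptor gene in all tissues and are obese and diabetic. At 11 weeks of age the mice were housed singly for 1 week and then given 2 full-thickness wounds on the back with a 4 mm punch. The treated group of 5 mice received a miR-132 mimic and the control group, another 5, a control mimic, 0.5 nmol per wound in 100 µl with the carrier MaxSuppressor In Vivo RNA-LANCEr II, injected at 4 points of the edge. All mice had isoflurane anaesthesia and buprenorphine for pain. Biopsies were taken 6 days after injury, so the carrier, the anaesthetic, the analgesic and the diabetes were common to both groups. There was no unwounded skin and no non-diabetic mouse among the samples. The mimic was injected into the whole wound edge, and the labels name no cell type that took it up. The labels do not say whether 1 or both wounds of a mouse entered its sample.

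A mimic is a synthetic copy of a mature microRNA, which pairs with messenger RNAs mainly through its seed (bases 2 to 8). Both mature strands of miR-132 are shown because they define the treatment, with the seed in capitals, from RefSeq (GRCm38.p6, chromosome 11, plus strand, 75173723 to 75173744 for the 3p strand and 75173686 to 75173707 for the 5p strand). The labels do not say which strand the mimic carried.
mmu-miR-132-3p: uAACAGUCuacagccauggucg
mmu-miR-132-5p: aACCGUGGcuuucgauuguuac

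The genes of inducible prostaglandin E2 synthesis, Ptgs2 and Ptges, averaged lower in wounds given miR-132, and Hpgd, which encodes the inactivating enzyme, averaged higher. Ptges averaged 1.91-fold lower, Ptgs2 1.87-fold lower and Hpgd 1.33-fold higher. The 95% interval of the difference left out 0 for Ptges and included it for Ptgs2, Hpgd, the leukotriene genes Alox5, Alox5ap and Lta4h and the receptor genes Ptger2 and Ptger4. No member passed the threshold of an adjusted p of 0.05 (limma, Benjamini-Hochberg over all 17564 genes), where 0% of all genes passed and the lowest adjusted p of any gene was 0.597. At an unadjusted p under 0.05 there was 1 member, Ptges. Among all genes tested 5.62% were lower and 2.47% higher at that unadjusted p, 8.08% together. The groups overlapped for all 8 tested members, and they did not overlap for 0.928% of all genes. The split between directions depended on scaling: 987 genes were lower and 433 higher as deposited, 576 and 609 after a further quantile normalization, and 627 and 661 after centring each array on its median. Of the 8 members 4 averaged lower and 4 higher, with a median difference of -0.01. Over all genes 54% averaged lower, with a median of -0.02.

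**Figure D1:**
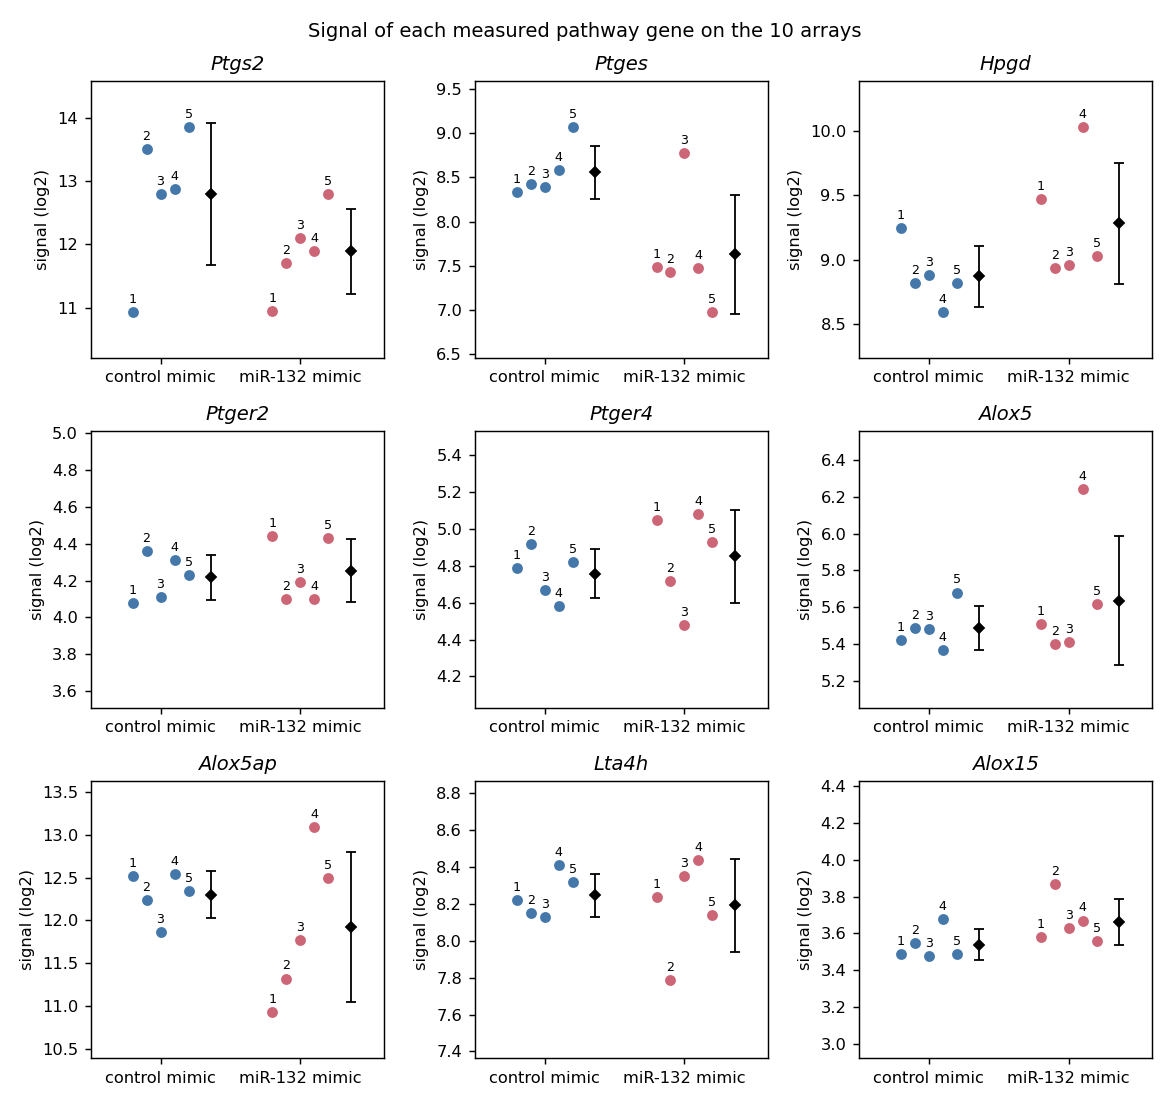
Signal of the 9 measured genes (log2) on each array, in wounds given control mimic (blue) and miR-132 mimic (red), numbered by replicate, with the group mean and SD (n = 5 each) in black. For Ptges, 4 of the 5 miR-132 arrays lie below every control array and replicate 3 lies among the controls; each panel has its own axis.

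Ptges encodes microsomal prostaglandin E synthase-1, the inducible enzyme that turns prostaglandin H2 into prostaglandin E2. Its log2 signal was 8.33, 8.42, 8.39, 8.58 and 9.07 on control replicates 1 to 5. With miR-132 it was 7.48, 7.43, 8.78, 7.47 and 6.98 on replicates 1 to 5. Thus 4 miR-132 arrays lay below every control array, and miR-132 replicate 3 lay above 4 of the 5 controls. The share of all genes with this pattern was not computed. The group values of Ptges were 8.56 ± 0.30 and 7.63 ± 0.68 (SD, n = 5 each), a difference of -0.93 ± 0.31 (SE, 95% interval -1.62 to -0.24). Its unadjusted p was 0.0132 and its adjusted p 0.597 (limma). Of all genes tested, 144 had a lower difference and 368 a smaller p. Without miR-132 replicate 3 the difference was -1.22 and Ptges passed (adjusted p of 0.0456), as 1 of 55 genes that passed in that setting. With a further quantile normalization as well it was -1.08 and did not pass (adjusted p of 0.0705). Over the 21 alternative settings the adjusted p ranged from 0.0456 to 0.836.

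Ptgs2 encodes cyclooxygenase-2, the inducible enzyme at the entry to all prostaglandins and a well-known target of NF-kB and of interleukin-1. Control replicates 1 to 5 measured 10.94, 13.50, 12.80, 12.88 and 13.85 on the log2 scale. The miR-132 replicates 1 to 5 measured 10.95, 11.70, 12.10, 11.90 and 12.79. All 5 miR-132 arrays lay below the control mean, but control replicate 1 lay below all of them. The groups averaged 12.79 ± 1.12 and 11.89 ± 0.67 (SD, n = 5 each), a difference of -0.91 ± 0.53 (SE, 95% interval -2.10 to 0.29, unadjusted p of 0.122, adjusted p of 0.678). The SD of Ptgs2 among controls was larger than that of 99.3% of the genes tested. Without control replicate 1, the array that made the groups overlap, the lowest control (12.80) stood barely above the highest miR-132 array (12.79). The share of all genes without overlap was not computed for that setting. The Ptgs2 difference was then -1.37 with an unadjusted p of 0.0053, still short of adjustment (adjusted p of 0.802, limma). Control replicate 1 was picked for its low Ptgs2 value, so the gap and the smaller p follow from that choice. Over all genes, 721 were lower and 334 higher at an unadjusted p under 0.05 without that array (limma). With the array's hybridisation spike-ins as a covariate the Ptgs2 difference was -1.64. These spike-ins averaged 10.90 to 10.98 on miR-132 replicates 3 to 5 and 10.43 to 10.61 on the other 7 arrays, so the covariate is partly confounded with treatment.

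The promoters of Ptgs2 and Ptges are shown because these genes of the induced prostaglandin E2 route had the lowest differences among the members. Each line gives the 250 bases before the RefSeq start of the gene, 5′ to 3′ on the gene's strand (GRCm38.p6, chr1:150099781-150100030 on the plus strand for Ptgs2 and chr2:30903298-30903547 on the minus strand for Ptges). Capitals mark GC boxes (GGGCGG), short sites that zinc finger factors such as Sp1 and Egr1 can bind.
Ptgs2: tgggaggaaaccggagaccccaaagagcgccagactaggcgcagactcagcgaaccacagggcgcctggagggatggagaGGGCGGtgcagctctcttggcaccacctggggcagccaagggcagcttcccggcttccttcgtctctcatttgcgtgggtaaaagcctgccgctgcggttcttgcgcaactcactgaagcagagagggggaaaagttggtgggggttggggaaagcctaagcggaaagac
Ptges: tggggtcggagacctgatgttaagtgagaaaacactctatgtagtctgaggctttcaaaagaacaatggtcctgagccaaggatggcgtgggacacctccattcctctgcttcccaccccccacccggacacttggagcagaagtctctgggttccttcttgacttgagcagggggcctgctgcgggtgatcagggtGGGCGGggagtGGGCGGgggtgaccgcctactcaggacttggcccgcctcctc

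The Ptges window held 2 GC boxes, 53 and 42 bases before the start, and the Ptgs2 window held 1, 170 bases before it. At least 1 GC box on either strand stood in 32.7% of 32841 promoter windows of this length. The E-box CACGTG, the cyclic AMP response half-site TGACG, the AP-1 site TGANTCA, the TATA box TATAAA and the NF-kB consensus were searched on both strands too. They were not among the letters of these windows, and they stood in 6.02%, 17.8%, 6.75%, 12.4% and 7.25% of the 32841. Bases further before the start, or after it, were not searched, so the windows do not show whether these genes lack such sites. Promoters were found for 8 of the 10 genes, without Alox5ap and Alox15. Besides the windows shown, that of Ptger4 held 4 GC boxes and those of Hpgd and Alox5 held 1 each. The windows of Ptgs1, Ptger2 and Lta4h held 0.

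Hpgd encodes 15-hydroxyprostaglandin dehydrogenase, which oxidises prostaglandin E2 to an inactive product. It measured 9.25, 8.82, 8.88, 8.60 and 8.82 on control replicates 1 to 5. With miR-132 it measured 9.47, 8.94, 8.96, 10.03 and 9.03. Each of the 5 treated arrays exceeded the control mean, and the groups overlapped through control replicate 1. The difference was 0.41 ± 0.23 (SE, 95% interval -0.10 to 0.92, unadjusted p of 0.102, adjusted p of 0.660, limma). Leaving out miR-132 replicate 4, the highest array, took it to 0.23. After a further quantile normalization it was 0.54 with an unadjusted p of 0.0139, and after centring each array on its median 0.46 with an unadjusted p of 0.0460. In neither setting did it pass adjustment (0.707 and 0.666).

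The receptors of prostaglandin E2 that raise cyclic AMP, Ptger2 (EP2) and Ptger4 (EP4), were dim and differed little. Ptger2 ranged from 4.08 to 4.36 in controls (median 4.23) and from 4.10 to 4.44 with miR-132 (median 4.19). Its mean of 4.24 over all arrays was just above the level filter of 4.17, so it was among the dimmest genes tested. Its difference was 0.03 ± 0.09 (SE, 95% interval -0.17 to 0.24), and it turned to -0.03 after a further quantile normalization. Ptger4 ranged from 4.58 to 4.92 in controls (median 4.79) and from 4.48 to 5.08 with miR-132 (median 4.93). Its difference was 0.10 ± 0.12 (SE, 95% interval -0.17 to 0.36). The array's negative-control features had a median of 4.77 and a 95th percentile of 8.28 (means over the 10 arrays). Ptger2 averaged below that median and Ptger4 close to it, so these intervals describe dim signals and set no limit on a change of the transcripts.

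Among the leukotriene genes, Alox5ap varied most between wounds and Lta4h little. Alox5ap encodes the membrane protein that presents arachidonic acid to 5-lipoxygenase. Its control replicates 1 to 5 stood at 12.52, 12.24, 11.87, 12.54 and 12.35, and its miR-132 replicates at 10.93, 11.32, 11.77, 13.09 and 12.50. The miR-132 arrays thus lay on both sides of the controls, 3 below all of them and 1 above. Their SD of 0.88 was larger than that of 95.8% of the genes tested, and the control SD was 0.27. The difference was -0.38 ± 0.38 (SE, 95% interval -1.23 to 0.47, adjusted p of 0.799, limma). It was -0.67 without miR-132 replicate 4 and -0.13 without miR-132 replicate 1.

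Alox5, the 5-lipoxygenase gene that starts leukotriene synthesis, stood at 5.37 to 5.68 on the controls. On miR-132 replicates 1 to 5 it was 5.51, 5.40, 5.41, 6.24 and 5.62, so replicate 4 alone lay outside the control range. The difference was 0.15 ± 0.15 (SE, 95% interval -0.19 to 0.49, adjusted p of 0.809), and it was -0.003 without that array and -0.02 with the spike-ins as a covariate. Lta4h, whose enzyme makes leukotriene B4, ranged from 8.13 to 8.41 in controls (median 8.22) and from 7.79 to 8.44 with miR-132 (median 8.24). Its difference was -0.05 ± 0.13 (SE, 95% interval -0.35 to 0.25) and turned to 0.06 after a further quantile normalization. For Lta4h, miR-132 replicate 2 was the only array below the control range. Alox15 encodes a lipoxygenase of macrophages and eosinophils that contributes to lipoxins and related mediators. It measured 3.48 to 3.68 in controls and 3.56 to 3.87 with miR-132. These values lay below the level filter on every array and were not tested. Alox5 and Lta4h, too, averaged below the 95th percentile of the negative-control features in both groups, and Ptges did so in the miR-132 group.

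**Figure D2:**
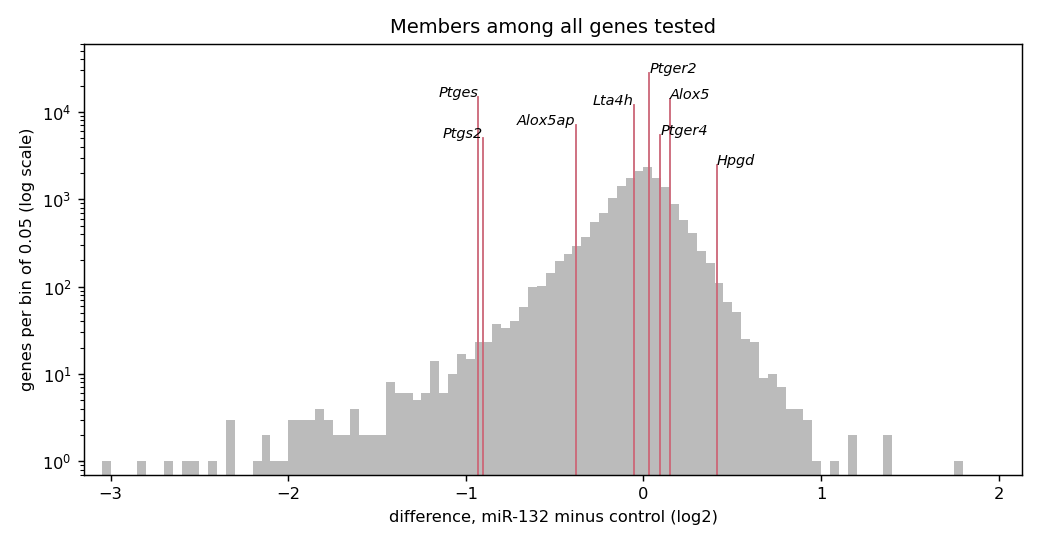
Differences of all 17564 genes tested (miR-132 minus control, log2) in bins of 0.05, on a log axis of counts, with the 8 tested members as red lines. Ptges at -0.93 and Ptgs2 at -0.91 lie in the lower tail, with 144 and 157 genes below them, and the other members lie between -0.38 and 0.41.

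A list of 68 other genes of eicosanoid metabolism gave 59 with a one-gene feature, of which 14 lay under the level filter and 45 were tested. None of the 45 passed adjustment, and 30 averaged lower and 15 higher, with a median difference of -0.10. At an unadjusted p under 0.05 there were 5 lower genes and 0 higher ones, beside the 5.62% and 2.47% of all genes given above. There were 2 lower and 1 higher after quantile normalization, 3 lower after median centring, 2 lower with the spike-in covariate, 9 lower with array weights, and 5 lower and 2 higher with no filter on the level. Without miR-132 replicates 2 and 5 together there were 1 lower and 1 higher. The count of lower genes was 11 without miR-132 replicate 3, 2 without miR-132 replicate 1 or control replicate 4, and 3 without miR-132 replicate 2 or 5 or control replicate 2. Counts over all genes shifted with the setting too. Lower genes numbered 987 as deposited, 1835 without miR-132 replicate 3 and 1191 with array weights. They numbered 1085 with the spike-in covariate and 401 without miR-132 replicates 2 and 5 together. Leaving out miR-132 replicate 1, 2 or 5 gave 772, 653 and 651, and leaving out control replicate 2 or 4 gave 929 and 657. No theme among these 5 genes (Ptgfrn, Pla2g4e, Abcc1, Ltb4r1 and Hpgds) was tested.

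**Figure D3:**
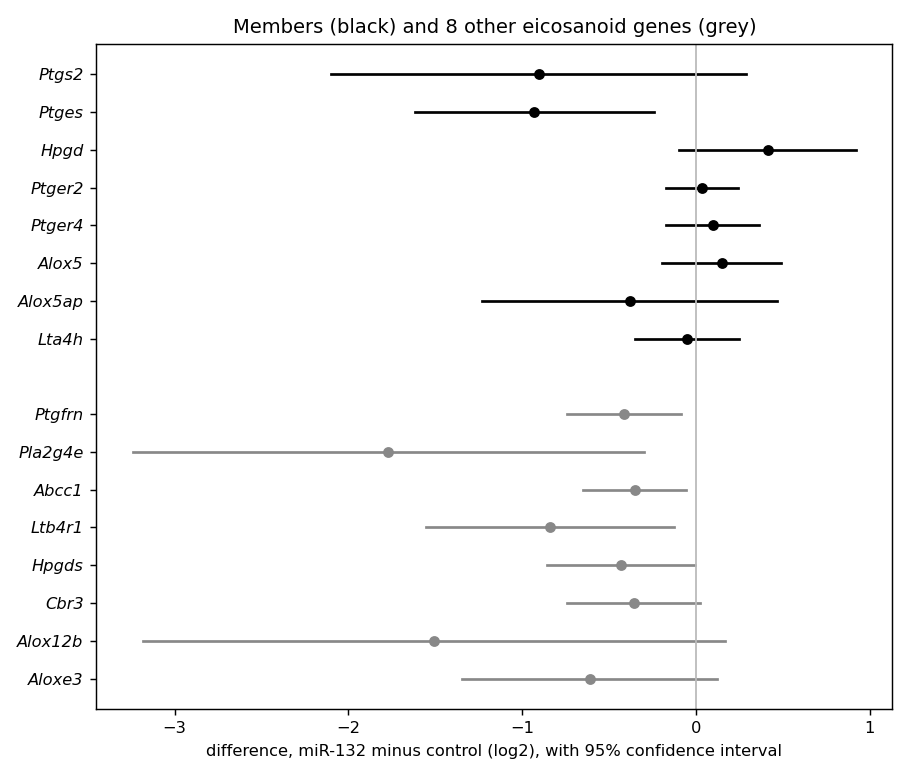
Difference (miR-132 minus control, log2) with its 95% interval from limma for the 8 tested members (black) and for the 8 other eicosanoid genes with the smallest p (grey), n = 5 per group. Ptges is the member whose interval leaves out 0. The grey genes were picked for a small two-sided p, so their distance from 0 is a result of that choice. Why they all lie on the lower side was not tested.

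Of 9 tested phospholipase A2 genes 6 averaged lower. Pla2g4e, a cytosolic phospholipase A2, averaged 3.42-fold lower, a log2 difference of -1.77 ± 0.66 (SE, unadjusted p of 0.0230, adjusted p of 0.597, limma). Its signal ran from 9.07 to 10.36 in controls and was 7.37, 7.73, 10.23, 8.26 and 6.11 on miR-132 replicates 1 to 5. As with Ptges, replicate 3 stood among the controls and the other 4 arrays below all of them. Without replicate 3 the difference was -2.34. Its neighbours in the family Pla2g4d (-0.75) and Pla2g4f (-0.71) also averaged lower, and Pla2g4a, the main enzyme of arachidonate release in most cells, had a difference of 0.18 ± 0.18 (SE, adjusted p of 0.800).

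Of the other lipoxygenase genes 4 were tested, and Alox12, Alox12b, Alox8 and Aloxe3 each averaged lower without passing. The list also held Ephx2, which encodes soluble epoxide hydrolase, at 0.06. Alox12b and Aloxe3 encode the epidermal enzymes that act one after the other on barrier lipids. Alox12b differed by -1.51 ± 0.75 (SE) and Aloxe3 by -0.61 ± 0.33 (SE), with unadjusted p of 0.0726 and 0.0932 (limma). Both had miR-132 replicate 3 (11.57 and 7.58) as the highest array of its group, and for Alox12b it also exceeded every control. Leaving it out gave differences of -2.21 and -0.87. Alox8 had the lowest difference of the 45 genes, -2.32, with an SE of 1.84 (unadjusted p of 0.235). Its arrays ran from 10.60 to 15.45 in controls and from 4.96 to 15.52 with miR-132, so the spread exceeds the difference.

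Among the remaining enzymes of the prostanoid branch, Hpgds, the haematopoietic prostaglandin D synthase gene, had a control mean of 10.50 ± 0.33 and a miR-132 mean of 10.07 ± 0.25 (SD, n = 5 each). Each miR-132 array lay below the control mean. Its difference was -0.43 ± 0.19 (SE, unadjusted p of 0.0485, adjusted p of 0.617, limma). Of 8 tested prostanoid synthases 6 averaged lower, and of 6 tested genes of transport and inactivation 4 did. Cbr3, a carbonyl reductase gene, differed by -0.36 ± 0.17 (SE, unadjusted p of 0.0636). Of 5 tested prostanoid receptor genes and relatives 4 averaged higher, with Ptger3 (EP3) at 0.41 ± 0.41 (SE). The exception was Ptgfrn, a membrane protein gene named for its inhibition of the prostaglandin F2 receptor, at -0.41 ± 0.15 (SE, unadjusted p of 0.0190). All 5 miR-132 arrays of Ptgfrn lay below its control mean.

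On the leukotriene side, 7 of 9 tested genes of synthesis and breakdown averaged lower. Abcc1, an exporter of leukotriene C4 among other substrates, differed by -0.35 ± 0.13 (SE, unadjusted p of 0.0239), and Ltc4s, the leukotriene C4 synthase gene, by -0.06 ± 0.21 (SE). Ltb4r1, the high-affinity leukotriene B4 receptor gene, averaged 1.79-fold lower. It ranged from 6.47 to 7.32 in controls and measured 5.65, 5.34, 7.14, 5.96 and 5.76 on miR-132 replicates 1 to 5. Again 4 arrays lay below all controls and replicate 3 above 4 of them. How many of all genes share this pattern was not computed. Over all genes, leaving out miR-132 replicate 3 raised the count lower at an unadjusted p under 0.05 (limma) from 987 to 1835. The Ltb4r1 difference was -0.84 ± 0.32 (SE, unadjusted p of 0.0259, adjusted p of 0.597) and -1.13 without replicate 3 (adjusted p of 0.0687, limma). Ltc4s averaged 4.87, near the negative-control median of 4.77. Ltb4r1, Ptger3, Aloxe3, Cbr3, Pla2g4a, Pla2g4d, Pla2g4f, Alox12 and Ephx2 averaged below the negative-control 95th percentile of 8.28. Pla2g4e and Abcc1 did so in the miR-132 group only. Hpgds, Ptgfrn, Alox12b and Alox8 averaged above it in both groups.

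The signals of Ptges, Ptgs2 and Alox5ap were set beside markers of cell types, in pairs picked after the values were seen. In bulk tissue, fewer cells of a type and less RNA per cell cannot be told apart. The 7 measured wound-activated keratinocyte markers averaged 13.93 to 14.85 on the controls and 13.00, 12.70, 14.63, 13.53 and 12.85 on miR-132 replicates 1 to 5. Their order has the break seen for Ptges, with replicate 3 among the controls and the other 4 below. Their mean difference was -1.03, and -1.35 without replicate 3. Of these 7 markers 6 averaged lower, led by Krt17 (-1.45), and Krt16 was at the upper signal limit of 19.93 on all 10 arrays. Differentiated keratinocyte markers were mixed: 5 of 9 averaged lower, with Tgm3 at -1.90, while Flg2 stood at 1.38 and Krt10, at the limit on all miR-132 arrays, at 0.37. Krt1 was at the limit on every array. Their mean difference was -0.39 and their median -0.18, and leaving out control replicate 4 made the mean -0.66 and leaving out control replicate 2 made it -0.15. All 9 basal markers averaged lower, by -0.26 in the mean (Trp63 at -0.68), and by -0.13 without control replicate 2. Of these, Krt5 (-0.20) and Krt14 (-0.02) were mostly at the limit. Their lower means rest on miR-132 replicates 1 and 5 for Krt5 and on replicate 1 for Krt14. Krt15 differed by -0.02 with an SE of 1.06. The part of the keratinocyte markers in the Ptges result was not tested.

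On the controls, neutrophil markers averaged 9.74 for replicate 1 and between 10.86 and 12.09 for replicates 2 to 5. Replicate 1 was thus the lowest control for both these markers and Ptgs2. The highest control differed, replicate 4 for the markers (12.09) and replicate 5 for Ptgs2 (13.85). On miR-132 replicates 1 to 5 the neutrophil markers averaged 10.44, 10.17, 10.48, 10.95 and 10.69. In that group they were lowest on replicate 2, whereas Ptgs2 was lowest on replicate 1. All 10 measured neutrophil markers averaged lower with miR-132, by -0.48 in the mean, with Clec4e at -1.03. S100a8 and S100a9 were at the signal limit on 9 of the 10 arrays, so their lower means rest on miR-132 replicate 5 (19.29 and 19.53). Without control replicate 1 this was -0.80 and without control replicate 4 it was -0.21. Macrophage and monocyte markers had no common direction: 7 of 12 averaged higher, among them C1qa at 0.34, and 5 lower, with Itgam at -0.59. Their mean difference was 0.04 and their median 0.09, and the mean was -0.13 without miR-132 replicate 4 and 0.17 without control replicate 1. Their values for miR-132 replicates 1 to 5 were 10.24, 10.26, 10.16, 11.26 and 10.85. Within this group replicates 4 and 5 were the highest both for these markers and for Alox5ap. The lowest was replicate 3 for the markers and replicate 1 for Alox5ap. Among controls the lowest was replicate 2 for the markers (9.90) and replicate 3 for Alox5ap (11.87). The part of these cells in the values of Ptgs2 and Alox5ap was not tested. Of 5 measured eosinophil markers 0 lay above the level filter, and the same held for Alox15.

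**Figure D4:**
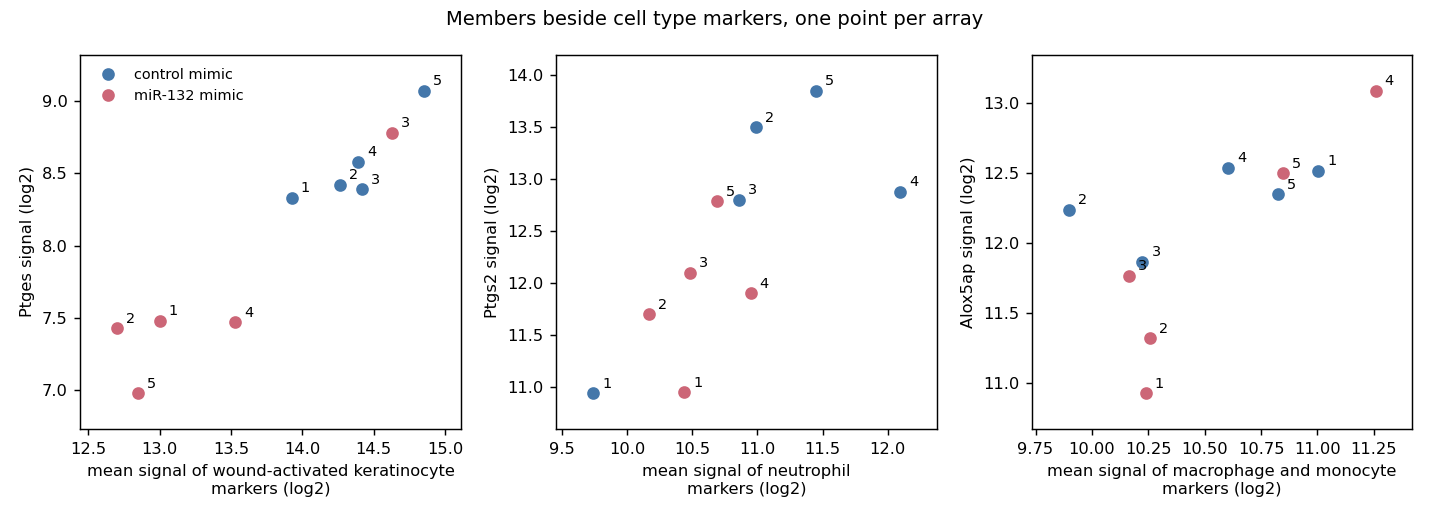
Signal of Ptges, Ptgs2 and Alox5ap (log2, vertical) against the mean signal of wound-activated keratinocyte, neutrophil and macrophage markers (log2, horizontal), 1 point per array, numbered by replicate, blue for control and red for miR-132. In the first panel the 4 miR-132 arrays with Ptges at 6.98 to 7.48 are also the 4 with the lowest keratinocyte markers; these 3 pairs of gene and list were picked after the values were seen.

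The mean differences of markers of other cells shifted in size with single arrays, and for platelets, fibroblasts and endothelium also in sign. That of adipocytes was 0.68, with Retn at 1.77, and it was 0.14 without miR-132 replicate 1 and 1.10 without miR-132 replicate 3. That of skeletal muscle was -0.46, with Myh2 at -0.97, and ran from -0.98 without control replicate 4 to -0.06 without miR-132 replicate 4. That of sebaceous glands was -0.26, with Elovl3 at -0.67, and it was -0.56 when miR-132 replicate 1 was left out and -0.03 when replicate 5 was. Mast cell markers differed by 0.13, with Cpa3 at 0.45, and by 0.01 without miR-132 replicate 4 and 0.24 without miR-132 replicate 3. Platelet markers (0.21, with Pf4 at 0.32) turned to -0.04 without miR-132 replicate 5 and reached 0.34 without replicate 3. Fibroblast markers (-0.09, with Thy1 at 0.32) and endothelial markers (-0.08, with Cdh5 at -0.33) both turned to 0.05 without miR-132 replicate 3, and were lowest at -0.19 without replicate 4 and at -0.21 without replicate 5, respectively. Some fibroblast markers repeated 1 bright value. Dcn read 17.88 on every control array, and Postn had 19.54 as median and highest value in both groups. The cause of these repeats was not tested. By gene, 8 of 8 tested adipocyte, 6 of 8 mast cell and 3 of 3 platelet markers averaged higher. Lower on average were 7 of 8 skeletal muscle, 3 of 4 sebaceous gland, 4 of 7 fibroblast and 5 of 7 endothelial markers. None of the 92 tested markers passed adjustment. The basal keratinocyte genes Krt5 and Krt14 reached the signal limit on 8 and 9 arrays, and Krt1 and Krt16 on all 10, so the defining genes of skin were bright.

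For each tested member the genes with the most similar pattern were taken as those with the highest Pearson correlation over the 10 arrays. Predicted genes (Gm and Rik names) were left out of the 17564. This is a description that picks the extremes of many genes on shared arrays. For Ptges the most similar were Grhl3 (0.99), an epidermal transcription factor gene, Trpv3 (0.984), a cation channel gene of keratinocytes, and Tmem125 (0.978). Grhl3 itself averaged -2.06 and Trpv3 -0.80. For Ptgs2 they were Slc38a2 (0.947), an amino acid transporter gene, Rnf122 (0.930) and Nlrp3 (0.924), an inflammasome sensor gene with a difference of -0.67. For Alox5ap they were Ncf1 (0.951), which encodes a subunit of the phagocyte oxidase, Fcer1g (0.934), the Fc receptor gamma chain, and Neu1 (0.931). For Hpgd they were Idh1 (0.978), the cytosolic isocitrate dehydrogenase gene, Ndufaf7 (0.943) and Npl (0.921). None of these 12 genes was shared between the 4 members. The highest for the dimmer members were Id3 for Ptger4 (0.978), Zfp980 for Alox5 (0.964), Isg20l2 for Lta4h (0.932) and Naalad2 for Ptger2 (0.872). Spearman correlations, which use ranks, ran from 0.755 (Zfp980 with Alox5) to 0.988 (Grhl3 with Ptges) over the pairs named here. For the Hpgd pairs they were 0.924, 0.774 and 0.790, in the order above. Alox5 and Hpgd were each highest on miR-132 replicate 4 (6.24 and 10.03).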

How the data were processed

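Per the submitters' processing notes, the authors made the values with Affymetrix Expression Console 1.4 and RMA, which corrects background, normalizes between arrays and summarises the probes of a transcript cluster. The deposited values are taken as log2 signal, from their range and the shared upper limit of 19.93. No column was unmatched and 0 pairs of arrays were identical. Of 72688 features 31080 carried 1 gene, 1670 several and 39938 are unnamed here; names were updated through gene identifiers (GRCm38.p6). Genes with a mean over the 10 arrays above 4.17, the median over all features, were tested with limma 3.58.1 in R 4.3.3 (lmFit, eBayes with trend), two-sided, without covariates. The files give 1 value per feature, so the number of arrays limits precision. The procedure was tested on simulated data. Members and lists were chosen with earlier results of these data known. Named genes are the members, the other pathway genes at an unadjusted p under 0.05 filled up to 8 by p, the marker with the largest difference per list and the 3 genes most correlated with each member. Predicted genes (Gm and Rik names) were left out of the search for correlated genes. Pla2g4a, Pla2g4d, Pla2g4f, Alox8, Alox12, Ephx2, Ltc4s, Ptger3, Flg2, Krt10, C1qa, S100a8 and S100a9 were named after their values were seen. Alternatives changed the filter, trend, normalization, covariate, array weights, block, feature choice and arrays used.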

Additional observations from a re-analysis of the deposited data

Results flagged for a closer look

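The count of 60 groups of 5 arrays includes those of the eosinophil markers, which held 0 tested markers and could not be flagged. Among the rest, 2 had an array far from the other 4 of its group by Dixon's criterion, where chance gives about 1 in 20 groups. Ptges stood at 8.78 on miR-132 replicate 3, against 6.98 to 7.48 on the other miR-132 arrays. Alox5 stood at 6.24 on miR-132 replicate 4, against 5.40 to 5.62 on the others.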

How the results depend on the processing

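The number of genes that passed adjustment ranged from 0 to 55 and the number of members from 0 to 1 when single arrays were left out, both highest without miR-132 replicate 3; the counts were 0 in every other alternative. Members lower at an unadjusted p under 0.05 numbered 2 with the spike-in covariate and 0 without miR-132 replicates 2 and 5 together, and 1 to 2 when single arrays were left out. Over all genes the lower count was 987 in the main setting, 1085 with the covariate and 401 without those replicates. It ran from 615 to 1835 when single arrays were left out. Members higher numbered 1 after quantile normalization, after median centring, without miR-132 replicates 2 and 5, and with quantile normalization without miR-132 replicate 3, an alternative chosen after seeing the data. Over all genes the higher count was 433 in the main setting and 609, 661, 613 and 1379 in these settings, in that order. Ptgs2 (-1.64 to -0.64), Ptges (-1.22 to -0.65), Hpgd, Ptger4 and Alox5ap kept their sign in all alternatives. Ptger2 turned to -0.0319 after quantile normalization and -0.0233 when replicate 3 was left out as well, with -0.013 to 0.072 when single arrays were left out. Alox5 turned to -0.0161 with the covariate, with -0.003 to 0.207 without single arrays. Lta4h turned to 0.0586 after quantile normalization, 0.0417 when replicate 3 was also left out and 0.0973 when miR-132 replicates 2 and 5 were, with -0.116 to 0.0465 without single arrays. The cause of these changes was not tested. Replicate numbers are shared by both groups, but arrays with the same number did not deviate together (correlations of -0.03 to 0.17 over genes); with the replicate block 2 members were lower at an unadjusted p under 0.05 and 0 passed. Dim members are limited by signal near the level filter.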
